A study of Mus musculus with 16 samples.

Results

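Imprinted genes are transcribed mainly from the copy inherited from one parent. The 40 imprinted genes described here were chosen by name, as genes well known to be imprinted in the mouse. Of these, 38 were among the 21220 rows of the authors' normalized table. Snurf and Dio3 were not, but both have rows among the 48709 genes of the count files. By the allele known from the literature to be expressed, 23 are paternal, 11 maternal and 6 depend on tissue or isoform (Ube3a, Copg2, Ppp1r9a, Grb10, Commd1 and Gnas). They fall into 15 clusters or single loci, on mouse chromosomes 2, 6, 7, 10, 11, 12, 15, 17 and 18.

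The study exposed organs of Corti, the cochlear tissue that holds the hair cells, to FK228, a cyclic peptide that inhibits class I histone deacetylases, or to solvent. The organs came from C57BL/6 mice of postnatal day 0 and were kept in culture for 3.5 days. The 16 libraries form 4 groups of 4, and the comparisons of FK228 within a genotype and of genotype within a treatment draw on these same libraries, so contrasts share samples. Wild-type cultures received 2 nM FK228 (libraries 1, 2, 4 and 7) or 0.1% DMSO (libraries 1 to 4). Cultures with a single Rest copy deleted for exon 4, called heterozygous here and written Rest(+/deltaExon4), received 2 nM FK228 (libraries 2 to 5) or 0.1% DMSO (libraries 1, 2, 4 and 5). Each culture was exposed on 2 occasions, between days 1 and 1.5 and again between days 3 and 3.5, when RNA was taken. Each library holds RNA pooled from 6 to 8 cultures. Whether the pools stem from separate litters is not in the labels, and the p-values therefore cover the spread from pool to pool, which may be technical in part. The cultures hold mixed cells, and in bulk RNA fewer cells of a type and less RNA per cell cannot be told apart.

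Imprints are laid down as DNA methylation in the germ line, at control regions that each govern a cluster of genes. Within a cluster, a long noncoding RNA made from one parental copy often accompanies silence of the protein-coding genes on that same copy. Histone marks differ between the parental copies, and deacetylated histones are among the features of silent copies. Many imprinted genes act on growth before and after birth, with paternally expressed genes such as Igf2 promoting it and maternally expressed genes such as Igf2r and Cdkn1c limiting it. The libraries come from an inbred strain and were counted per gene, so a level here is the sum of both parental copies, and loss of imprinting cannot be told apart from higher output of the active copy.

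Libraries held 12361027 to 23611571 reads in genes, with 21653 to 22904 genes detected. The summed levels of hair cell and supporting cell markers reached 358 to 643 CPM and 3786 to 6564 CPM over the 16 libraries. Of 5 red blood cell markers, the 1 that passed the filter on low counts stayed under 1.82 CPM. Hbb-bs and Hba-a1, which did not pass it, reached at most 0.616 and 0.685 CPM. CPM, the usual depth-scaled unit of read counts, were scaled here by TMM factors. Rest, the altered gene, held 75.8 to 87.3 CPM in heterozygous FK228 libraries and 78.1 to 94.8 CPM in heterozygous solvent libraries, against 69.9 to 79.9 CPM in wild-type FK228 and 75.2 to 86.4 CPM in wild-type solvent libraries. It passed the test in none of the 5 contrasts, and a count over the whole gene does not test for the missing exon. The share of reads in no gene ran from 10.4% to 20.8% and was lowest in heterozygous solvent library 4 and wild-type solvent library 1, at 10.4% and 10.8%. When libraries were scaled to ERCC spike-in RNA in place of TMM factors, the log2 fold change of the median gene moved to -0.16 for FK228 in wild type and -0.72 for FK228 in heterozygous cultures. A change given below is a change against the other transcripts of the library. That scaling ended the calls of Snrpn, Kcnq1ot1, Slc22a18, Igf2r and Peg10 in wild type and of Usp29, Nnat, Mirg, Peg3, Kcnq1ot1 and Slc22a18 in heterozygous cultures, and Copg2 and Snrpn were then called lower in heterozygous cultures.

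Of the 40 genes, 35 passed the filter on low counts and were tested. Snurf, an upstream reading frame in the Snrpn transcript, had 0 counts in all 16 libraries, and all 216 bases of its annotated exons also belong to Snrpn. Dio3, a deiodinase that inactivates thyroid hormone, had 1 count in all. Magel2, Rtl1 and Nespas had 75, 37 and 87 counts over the 16 libraries and were not tested. Magel2, a MAGE family gene of the Snrpn region, had 0.543 to 0.792 CPM in wild-type FK228 libraries and 0 to 0.165 CPM in wild-type solvent libraries, but 0 to 0.62 CPM in heterozygous FK228 and 0 to 0.269 CPM in heterozygous solvent libraries. It was singled out after its values were seen.

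Per kilobase of exon, the imprinted genes spanned several orders of magnitude. Mest, which encodes a hydrolase-fold protein, led with 95.3 CPM per kilobase as a mean over all libraries. Grb10, an adaptor that dampens insulin and IGF receptor signalling, followed with 93.7, Impact, an inhibitor of GCN2 activation, with 92.0, Peg12 with 81.3 and H19 with 80.4 CPM per kilobase. The order among these 5 was not tested, and Mest lost reads where its exons overlap those of Copg2. At the other end, Usp29 reached 0.15 and Zim1 0.075 CPM per kilobase. Mest had 399, 385, 437 and 328 CPM in wild-type FK228 libraries against 428, 440, 402 and 289 CPM in wild-type solvent libraries. It had 383, 357, 380 and 331 CPM in heterozygous FK228 libraries against 312, 378, 383 and 379 CPM in heterozygous solvent libraries. The groups overlapped in both genotypes, with log2 fold changes of -0.0087 ± 0.11 in wild type and -0.00078 ± 0.11 in heterozygous cultures (SE derived from the edgeR test).

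FK228 changed the level of 18 of the 35 tested imprinted genes in each genotype. In wild type 9 were higher and 9 lower with FK228, and 17 did not pass an adjusted p under 0.05. Over all 17125 genes tested, 49.0% passed, 23.7% higher and 25.3% lower, against 51.4% of the imprinted genes. In heterozygous cultures 10 were higher and 8 lower, again 51.4%, where 48.4% of all genes passed, 23.8% higher and 24.7% lower. The share of imprinted genes that changed was thus close to that of genes in general. Their median log2 fold change was 0.016 in wild type and 0.047 in heterozygous cultures, beside -0.0058 and 0.00082 over all genes. FK228 and solvent libraries did not overlap for 15 of the 35 in wild type and 16 in heterozygous cultures, where 44.7% and 42.6% of all genes did not overlap.

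**Figure D1:**
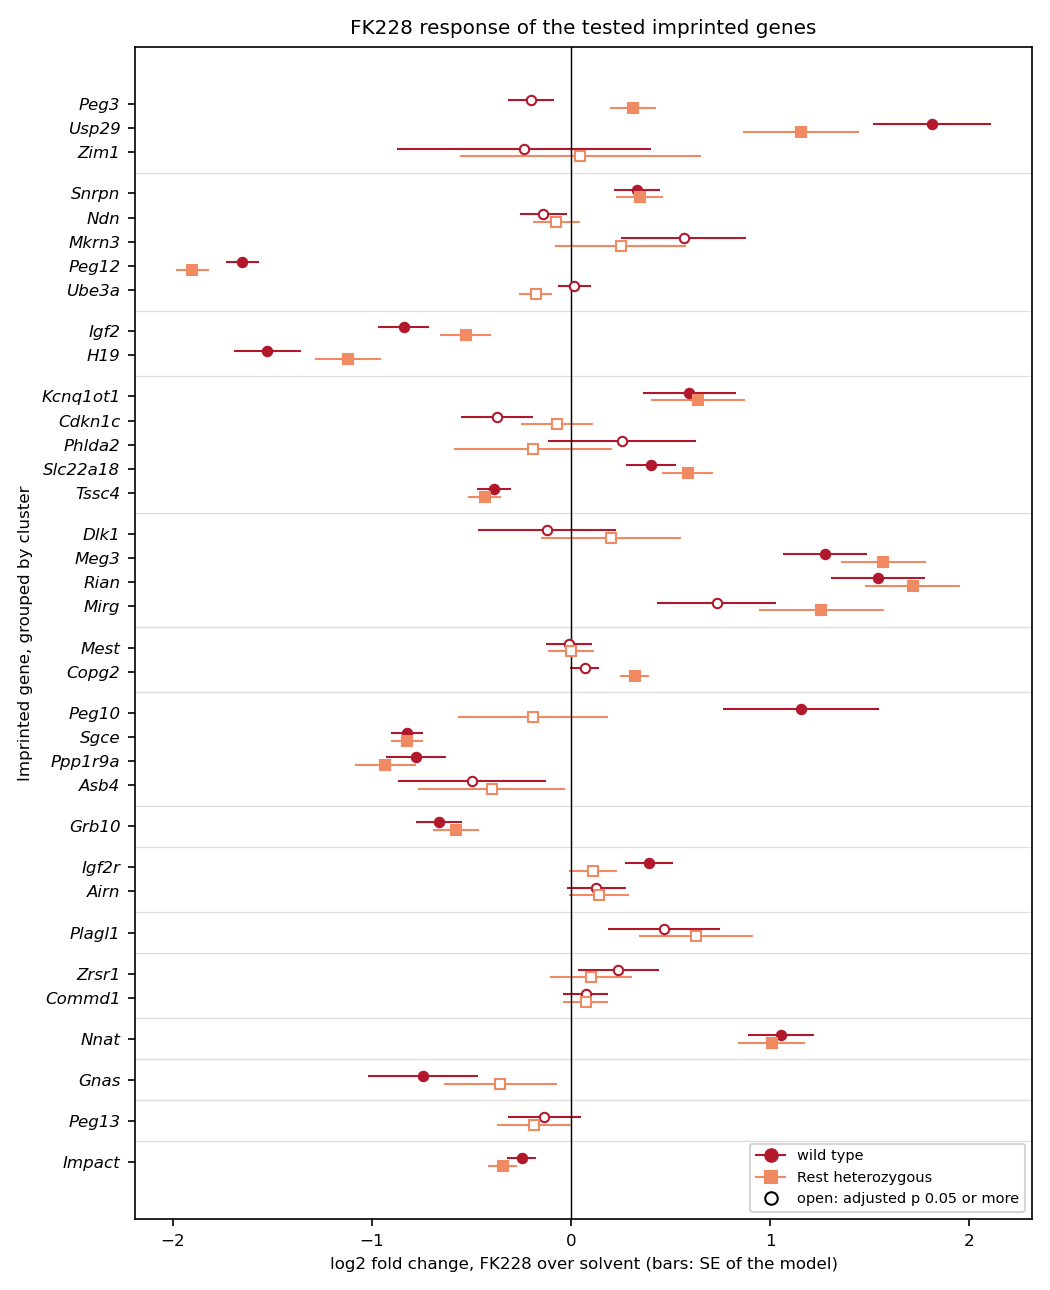
Log2 fold change of FK228 over solvent (x axis, with SE derived from the edgeR test as bars) for the 35 tested imprinted genes (y axis), grouped by cluster with lines between clusters. Circles are wild type, squares are heterozygous cultures and open symbols did not pass an adjusted p under 0.05. Values ran from -1.65 for Peg12 to 1.81 for Usp29 in wild type. With spike-in scaling, the heterozygous values of Airn, Commd1, Copg2, Dlk1, Igf2r, Kcnq1ot1, Mkrn3, Peg3, Plagl1, Slc22a18, Snrpn, Zim1 and Zrsr1 and the wild-type values of Airn, Commd1, Copg2 and Ube3a turn negative.

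The 7 genes higher with FK228 in both genotypes were Kcnq1ot1, Meg3, Rian, Nnat, Slc22a18, Snrpn and Usp29. The 8 lower in both were Grb10, H19, Igf2, Impact, Peg12, Ppp1r9a, Sgce and Tssc4. Igf2r and Peg10 passed as higher and Gnas as lower in wild type alone, and Copg2, Mirg and Peg3 as higher in heterozygous cultures alone. None of these differences between genotypes was called in the test of the difference itself. The 14 that passed in neither were Airn, Asb4, Cdkn1c, Commd1, Dlk1, Mest, Mkrn3, Ndn, Peg13, Phlda2, Plagl1, Ube3a, Zim1 and Zrsr1.

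Paternally and maternally expressed genes each went both ways. Of 18 tested paternally expressed genes, 5 were higher and 4 lower in wild type, and 5 higher and 4 lower in heterozygous cultures. Of 11 maternally expressed genes, 4 were higher and 2 lower in each genotype. Of the 6 genes whose expressed allele depends on tissue, 0 were higher and 3 lower in wild type, and 1 was higher and 2 lower in heterozygous cultures. Among all genes tested, 49.0% passed in wild type, 23.7% higher and 25.3% lower. In heterozygous cultures 48.4% of all genes passed, 23.8% higher and 24.7% lower. The share that passed in each class was thus near that of genes in general. No test compared the classes. Both directions also occurred within the Snrpn-Ube3a and Kcnq1 clusters in both genotypes, and in the Peg10-Sgce cluster in wild type.

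The maternally expressed noncoding RNAs of the Dlk1-Dio3 cluster were among the genes with the highest rises. Meg3 (GRCm38 chr12:109541001-109571726, plus strand), the first of these RNAs, had 55.6, 41.3, 76.4 and 70.1 CPM in wild-type FK228 libraries against 20.7, 27.7, 27.3 and 25.1 CPM in wild-type solvent libraries. In heterozygous cultures it had 57.9, 60.5, 66.1 and 75.5 CPM with FK228 against 25.4, 31.2, 13.3 and 17.6 CPM with solvent. Every FK228 library lay above every solvent library of its genotype. The log2 fold change was 1.27 ± 0.21 in wild type (SE, n = 4 per group, 2.42-fold higher, edgeR quasi-likelihood test with Benjamini-Hochberg adjustment, adjusted p = 7.17e-05) and 1.57 ± 0.22 in heterozygous cultures (2.97-fold higher, adjusted p = 9.43e-06). Rian (chr12:109603940-109661716, plus strand), which hosts C/D box small nucleolar RNAs, lies 62939 bases downstream by the distance between starts. Its values were 50.6, 53.2, 78.1 and 78.3 CPM with FK228 against 14.3, 27.4, 22.9 and 25.0 CPM with solvent in wild type. In heterozygous cultures they were 66.8, 74.6, 75.0 and 79.2 CPM with FK228 against 27.3, 31.2, 11.5 and 19.9 CPM with solvent. Again no library overlapped, and the log2 fold changes were 1.54 ± 0.24 in wild type (adjusted p = 3.37e-05) and 1.72 ± 0.24 in heterozygous cultures (adjusted p = 1.19e-05).

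Mirg (chr12:109729764-109749460, plus strand), a host RNA of many microRNAs at the far end of the cluster, was scarce. It had 2.16, 2.12, 3.32 and 3.85 CPM in wild-type FK228 libraries against 1.76, 1.93, 1.18 and 2.01 CPM in wild-type solvent libraries. Heterozygous FK228 libraries had 1.81, 3.45, 3.72 and 3.38 CPM against 1.89, 1.31, 0.808 and 1.16 CPM in heterozygous solvent libraries. It rose in heterozygous cultures, by 1.26 ± 0.32 on the log2 scale (adjusted p = 0.00292, edgeR), where FK228 library 2 lay within the range of solvent. In wild type the groups did not overlap but the log2 fold change of 0.73 ± 0.30 just missed the threshold (adjusted p = 0.05), and DESeq2 called it (adjusted p = 0.0473). Mirg passed in wild type without any one of 5 libraries, namely wild-type FK228 libraries 1 and 2, heterozygous FK228 library 2 and heterozygous solvent libraries 1 and 4 (adjusted p 0.0323 to 0.0431). Dlk1, a paternally expressed membrane protein related to Notch ligands, averaged 4.55 ± 1.29 CPM with FK228 and 4.98 ± 2.25 CPM with solvent in wild type (SD, n = 4). In heterozygous cultures it averaged 5.37 ± 1.34 CPM with FK228 and 4.67 ± 2.19 CPM with solvent, and it passed in neither genotype. Rtl1, a paternally expressed gene that came from a retrotransposon, stayed at or under 0.473 CPM in every library.

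The promoter windows of Meg3 and Rian are shown because both RNAs rose and the windows at their annotated starts differ in CpG. Each window holds 250 bases before and 50 after the annotated start, from RefSeq on GRCm38.p6, 5′ to 3′ on the gene's strand, with CpG dinucleotides in capitals. The Meg3 window printed (chr12:109540746-109541045, plus strand) holds 13 CpG, a second Meg3 window in the table (chr12:109545148-109545447) holds 1, and the Rian window (chr12:109603695-109603994, plus strand) holds 0.
Meg3: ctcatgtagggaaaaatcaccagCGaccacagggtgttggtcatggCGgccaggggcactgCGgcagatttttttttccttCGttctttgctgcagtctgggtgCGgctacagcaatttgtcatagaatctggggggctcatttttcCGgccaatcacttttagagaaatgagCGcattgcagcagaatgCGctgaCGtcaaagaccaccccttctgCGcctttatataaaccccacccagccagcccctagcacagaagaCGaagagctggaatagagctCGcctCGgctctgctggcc
Rian: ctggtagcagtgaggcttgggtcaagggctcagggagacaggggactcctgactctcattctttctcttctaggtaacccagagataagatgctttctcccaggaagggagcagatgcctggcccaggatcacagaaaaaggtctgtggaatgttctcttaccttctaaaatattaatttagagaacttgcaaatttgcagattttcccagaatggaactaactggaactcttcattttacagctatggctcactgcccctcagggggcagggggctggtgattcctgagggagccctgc

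A pair of genes of the Peg3 domain on chromosome 7 starts back to back. Peg3, a paternally expressed zinc finger gene, and Usp29, a paternally expressed ubiquitin peptidase gene, have starts 147 bases apart on opposite strands, Peg3 at chr7:6703892-6730431, minus strand, and Usp29 at chr7:6730578-6967219, plus strand. Usp29 had 3.92, 3.93, 3.56 and 4.81 CPM in wild-type FK228 libraries against 0.904, 0.88, 1.68 and 1.15 CPM in wild-type solvent libraries. Heterozygous FK228 libraries had 2.72, 4.20, 4.53 and 4.17 CPM against 2.31, 1.31, 0.943 and 2.47 CPM in heterozygous solvent libraries. The groups did not overlap in either genotype. Usp29 rose by 1.81 ± 0.30 on the log2 scale in wild type (SE, adjusted p = 6.33e-05, edgeR) and by 1.15 ± 0.29 in heterozygous cultures (adjusted p = 0.00323). It is a low gene, with 684 reads over all 16 libraries, and 14.8% of its exon bases are shared with Gm27675 or Zim3.

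Peg3 was called in heterozygous cultures and not in wild type. It averaged 26.6 ± 2.32 CPM with FK228 and 30.6 ± 4.66 CPM with solvent in wild type, a log2 fold change of -0.20 ± 0.12 that did not pass (adjusted p = 0.165, edgeR). In heterozygous cultures it averaged 32.0 ± 3.11 CPM with FK228 and 25.8 ± 2.96 CPM with solvent and passed as higher by 0.31 ± 0.12 on the log2 scale (adjusted p = 0.0359), but at -0.41 with spike-in scaling. That call was lost, with adjusted p from 0.0593 to 0.109, without any one of heterozygous FK228 libraries 2, 3 and 4 or heterozygous solvent libraries 1, 4 and 5. The log2 ratio of Peg3 to Usp29 within a library, which does not depend on how libraries are scaled, averaged 2.72 ± 0.30 with FK228 and 4.77 ± 0.44 with solvent in wild type. In heterozygous cultures it averaged 3.05 ± 0.39 with FK228 and 3.98 ± 0.65 with solvent, and the groups overlapped there. Zim1, a maternally expressed zinc finger gene of the same domain, held 0.0604 to 1.42 CPM over all libraries and passed in neither genotype.

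The windows of Peg3 and Usp29 share 263 bases read from opposite strands, and are shown because the pair shares this stretch while only Usp29 was called in both genotypes. The Usp29 window (chr7:6730333-6730632, plus strand) holds 17 CpG and the Peg3 window (chr7:6730370-6730669, minus strand) holds 13, in capitals as before and from the same RefSeq table on GRCm38.p6.
Usp29: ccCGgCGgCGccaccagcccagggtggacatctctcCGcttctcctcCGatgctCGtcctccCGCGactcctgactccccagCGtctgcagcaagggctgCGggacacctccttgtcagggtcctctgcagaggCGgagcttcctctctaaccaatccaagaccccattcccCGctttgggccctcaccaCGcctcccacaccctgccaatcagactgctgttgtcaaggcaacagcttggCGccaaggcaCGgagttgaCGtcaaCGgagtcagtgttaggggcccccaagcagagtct
Peg3: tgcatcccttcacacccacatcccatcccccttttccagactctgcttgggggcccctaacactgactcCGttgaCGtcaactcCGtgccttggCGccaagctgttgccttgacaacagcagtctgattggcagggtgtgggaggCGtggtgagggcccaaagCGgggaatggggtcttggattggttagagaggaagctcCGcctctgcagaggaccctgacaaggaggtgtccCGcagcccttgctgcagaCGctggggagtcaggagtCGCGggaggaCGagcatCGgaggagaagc

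Peg12, the paternally expressed gene with the strongest fall, lies at the end of the Snrpn-Ube3a region and encodes a GSK3-binding protein of the Wnt pathway. It is annotated at chr7:62461871-62464510, minus strand. It had 103, 114, 97.0 and 109 CPM in wild-type FK228 libraries against 374, 334, 330 and 290 CPM in wild-type solvent libraries. It had 83.9, 89.5, 95.2 and 86.3 CPM in heterozygous FK228 libraries against 354, 323, 305 and 345 CPM in heterozygous solvent libraries. The 8 FK228 libraries all lay far below the 8 solvent libraries. The log2 fold change was -1.65 ± 0.081 in wild type (SE, n = 4 per group, 3.14-fold lower, adjusted p = 1.16e-10, edgeR) and -1.90 ± 0.082 in heterozygous cultures (3.74-fold lower, adjusted p = 2.31e-11). Leaving out any one library gave -1.71 to -1.59 in wild type and -1.94 to -1.87 in heterozygous cultures. Its exons overlap no other annotated gene. The window at its start (chr7:62464461-62464760, minus strand, GRCm38.p6, RefSeq) is shown because it belongs to the gene with the smallest adjusted p of the set and the most negative fold change, with its 12 CpG in capitals.
Peg12: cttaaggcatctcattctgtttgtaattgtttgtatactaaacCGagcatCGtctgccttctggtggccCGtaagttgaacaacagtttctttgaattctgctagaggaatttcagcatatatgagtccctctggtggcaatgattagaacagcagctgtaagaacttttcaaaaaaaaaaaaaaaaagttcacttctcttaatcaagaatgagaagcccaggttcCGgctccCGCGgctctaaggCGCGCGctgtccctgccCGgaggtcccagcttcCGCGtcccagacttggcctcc

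Of the 4 other tested genes of the Snrpn-Ube3a region, Snrpn alone passed with all libraries. Snrpn, a paternally expressed splicing protein gene, averaged 59.4 ± 4.03 CPM with FK228 and 47.2 ± 8.47 CPM with solvent in wild type, and 53.2 ± 6.32 CPM with FK228 and 41.9 ± 4.10 CPM with solvent in heterozygous cultures. It passed as higher in both, at 0.33 ± 0.11 (adjusted p = 0.0233, edgeR) in wild type and 0.34 ± 0.12 (adjusted p = 0.0206) in heterozygous cultures on the log2 scale, but at -0.38 with spike-in scaling in heterozygous cultures. The wild-type call was lost (adjusted p 0.0568 to 0.087) without any one of FK228 libraries 1 and 7 or solvent libraries 3 and 4. The heterozygous call of Snrpn was lost (adjusted p 0.0592 to 0.0769) without any one of FK228 libraries 3 and 4 or solvent library 2. Ndn, a MAGE family gene, Mkrn3, a makorin RING finger gene, and Ube3a, a ubiquitin ligase expressed from the maternal copy in neurons, did not pass in either genotype. Ube3a gave -0.18 ± 0.084 in heterozygous cultures (adjusted p = 0.089), with FK228 libraries at 45.4 to 59.2 CPM and solvent libraries at 59.3 to 60.7 CPM. Ube3a passed as lower there without FK228 library 5 (-0.23, adjusted p = 0.0393). Mkrn3 passed as higher in wild type only when solvent library 4 was left out (0.83, adjusted p = 0.0479).

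**Figure D2:**
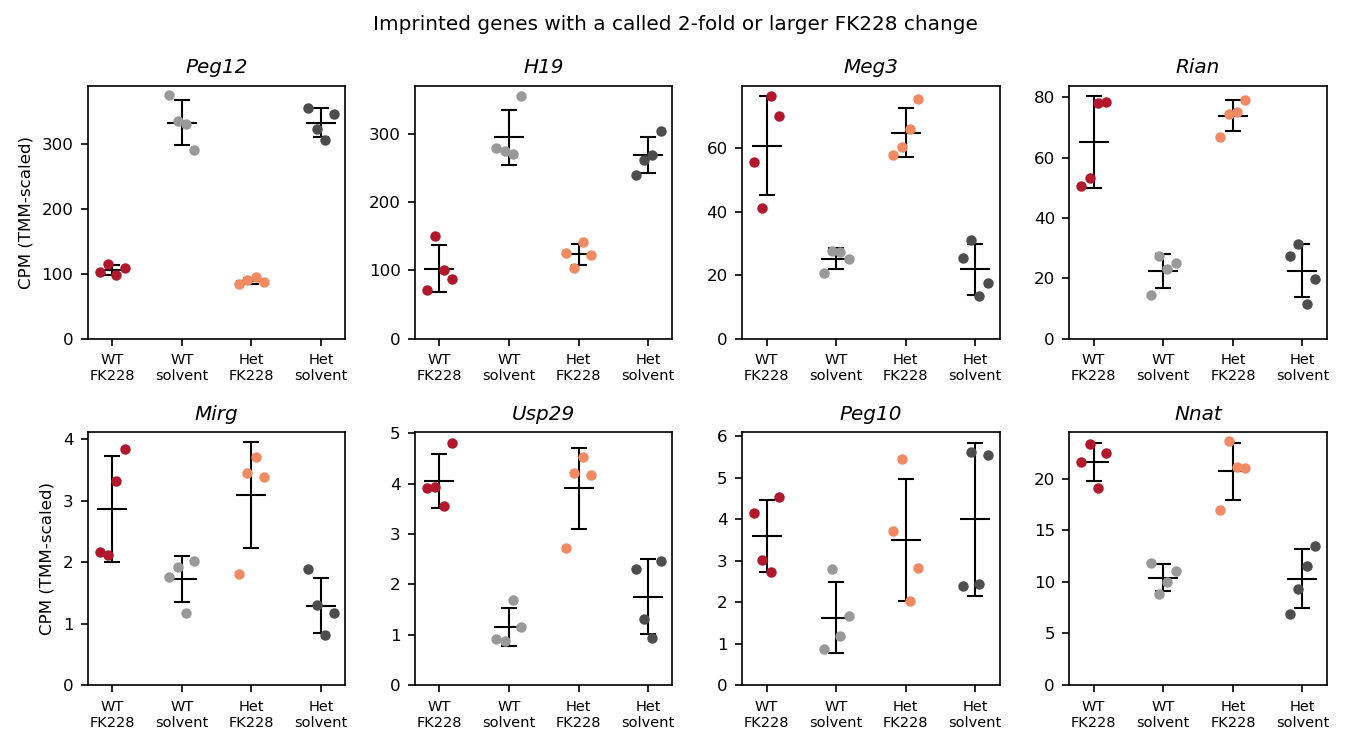
CPM of each library (points), with group mean and SD (bars, n = 4), for the 8 imprinted genes that passed an adjusted p under 0.05 with an absolute log2 fold change of at least 1 in either genotype. Peg12 and H19 lie lower, and Meg3, Rian, Usp29 and Nnat higher, in every FK228 library than in any solvent library of the same genotype, while Mirg in heterozygous cultures and Peg10 in both genotypes overlap.

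H19 and Igf2, which share enhancers and are expressed from opposite parental copies, both fell. H19 (chr7:142575529-142578143, minus strand), a maternally expressed noncoding RNA, had 71.6, 151, 101 and 87.1 CPM in wild-type FK228 libraries against 279, 276, 270 and 356 CPM in wild-type solvent libraries. It had 126, 104, 142 and 123 CPM in heterozygous FK228 libraries against 240, 262, 270 and 305 CPM in heterozygous solvent libraries. No FK228 library reached the lowest solvent library in either genotype. H19 fell by 1.53 ± 0.17 on the log2 scale in wild type (SE, 2.88-fold lower, adjusted p = 8.06e-07, edgeR) and by 1.12 ± 0.17 in heterozygous cultures (2.17-fold lower, adjusted p = 2.31e-05). Igf2 (chr7:142650766-142666816, minus strand), the paternally expressed fetal growth factor, averaged 68.2 ± 10.7 CPM with FK228 and 122 ± 20.2 CPM with solvent in wild type, a log2 fold change of -0.84 ± 0.13 (adjusted p = 2.71e-05). It averaged 81.6 ± 5.32 CPM with FK228 and 118 ± 17.5 CPM with solvent in heterozygous cultures, a log2 fold change of -0.53 ± 0.13 (adjusted p = 0.00204). Annotated exons of Gm49394 and Igf2os cover 64.5% of the Igf2 exon bases. The log2 ratio of H19 to Igf2 was 0.55 ± 0.26 with FK228 and 1.28 ± 0.13 with solvent in wild type, and 0.59 ± 0.17 with FK228 and 1.20 ± 0.11 with solvent in heterozygous cultures. The groups did not overlap, so H19 fell further than Igf2 in both genotypes.

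Most listed markers of otic mesenchyme also fell. Of 15 listed mesenchyme and fibroblast markers, 13 fell and 1 rose in wild type, and 12 fell and 1 rose in heterozygous cultures. Their summed level was 2540 to 3180 CPM with FK228 and 4435 to 5441 CPM with solvent in wild type, and 2672 to 3073 CPM with FK228 and 4522 to 5984 CPM with solvent in heterozygous cultures. All 10 macrophage markers fell in both genotypes, to a summed 48.8 to 61.1 CPM with FK228, against 401 to 490 CPM with solvent in wild type, and to 32.7 to 39.3 CPM, against 265 to 410 CPM, in heterozygous cultures. Of 21 cell cycle genes, 15 fell and 1 rose in wild type, and 17 fell and 2 rose in heterozygous cultures. Their summed level was 1162 to 1348 CPM with FK228 and 1401 to 1755 CPM with solvent in wild type. In heterozygous cultures the sums overlapped, at 1379 to 1644 CPM with FK228 and 1508 to 1917 CPM with solvent. Among 8 cartilage markers, 2 rose and 3 fell in wild type, and 1 rose and 3 fell in heterozygous cultures. For 15 supporting cell markers these counts were 2 and 6, then 0 and 8. For 15 hair cell markers they were 1 and 8, then 1 and 6. For 10 endothelial and pericyte markers they were 0 and 5 in each genotype. For 9 tested Schwann cell markers they were 0 and 6, then 0 and 7. For 7 tested melanocyte and stria markers they were 0 and 2, then 2 and 0. Over all genes 25.3% fell and 23.7% rose in wild type, and 24.7% fell and 23.8% rose in heterozygous cultures. The part of these shifts in the falls of H19, Igf2 and Peg12 was not tested.

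Of 20 listed genes for IGF ligands, receptors, binding proteins, adaptors and regulators, 0 rose, 7 fell and 13 did not pass in wild type, where 23.7% of all genes rose and 25.3% fell. In heterozygous cultures 1 rose, 9 fell and 10 did not pass, beside 23.8% and 24.7% of all genes. Igf1, the related growth factor, averaged 1207 ± 243 CPM with FK228 and 2599 ± 252 CPM with solvent in wild type (log2 fold change -1.11 ± 0.18, adjusted p = 6.81e-05, edgeR). It averaged 1195 ± 323 CPM with FK228 and 2322 ± 558 CPM with solvent in heterozygous cultures (log2 fold change -0.96 ± 0.18, adjusted p = 0.000269). Igfbp5, an IGF-binding protein, gave -1.47 ± 0.14 in wild type and -1.29 ± 0.14 in heterozygous cultures. Irs1, the adaptor of both the insulin and IGF receptors, gave -0.92 ± 0.087 in wild type and -0.97 ± 0.088 in heterozygous cultures.

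Igf2r, the maternally expressed receptor that clears IGF2, went the other way in wild type. It averaged 361 ± 30.1 CPM with FK228 and 275 ± 35.5 CPM with solvent there, without overlap, and passed as higher by 0.39 ± 0.12 on the log2 scale (adjusted p = 0.0115, edgeR). With the share of reads in no gene as a covariate the value was 0.26 (adjusted p = 0.0541). In heterozygous cultures it averaged 379 ± 49.8 CPM with FK228 and 351 ± 56.0 CPM with solvent, a log2 fold change of 0.11 ± 0.12 (adjusted p = 0.476), and -0.62 with spike-in scaling. The difference between genotypes, heterozygous minus wild type, was -0.28 ± 0.17 (adjusted p = 0.92). Airn, the paternally expressed RNA transcribed across Igf2r from the opposite strand, averaged 17.8 ± 2.86 CPM with FK228 and 16.3 ± 2.45 CPM with solvent in wild type, and 18.1 ± 1.89 CPM with FK228 and 16.4 ± 3.04 CPM with solvent in heterozygous cultures. Airn did not pass in either genotype, and with spike-in scaling its log2 fold change turned negative in wild type (-0.012) and in heterozygous cultures (-0.61). The libraries do not tell strands apart, so unspliced Igf2r reads that fall in Airn exons would count as Airn.

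Grb10 is counted among the tissue-dependent genes, since it is expressed from the maternal copy in most tissues and the paternal copy in neurons. It is annotated at chr11:11930508-12038683, minus strand. It had 670, 756, 721 and 765 CPM in wild-type FK228 libraries against 1041, 1306, 1235 and 1026 CPM in wild-type solvent libraries. It had 545, 642, 586 and 676 CPM in heterozygous FK228 libraries against 689, 1031, 1067 and 870 CPM in heterozygous solvent libraries. The FK228 libraries lay below the solvent libraries in both genotypes. Grb10 fell by 0.66 ± 0.12 on the log2 scale in wild type (adjusted p = 0.000131, edgeR) and by 0.58 ± 0.12 in heterozygous cultures (adjusted p = 0.000468). Plagl1, a zinc finger regulator of growth genes, averaged 5.38 ± 1.71 CPM with FK228 and 3.89 ± 1.53 CPM with solvent in wild type, and 6.30 ± 1.82 CPM with FK228 and 4.08 ± 0.716 CPM with solvent in heterozygous cultures. Plagl1 did not pass with all libraries, but passed as higher without wild-type solvent library 3 in wild type (0.76, adjusted p = 0.0355) and without FK228 library 5 in heterozygous cultures (0.79, adjusted p = 0.0354).

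The Kcnq1 cluster held changes in both directions. Kcnq1ot1 (chr7:143203458-143296549, minus strand), the paternally expressed antisense RNA of the cluster, had 150, 131, 193 and 158 CPM in wild-type FK228 libraries against 64.5, 112, 127 and 116 CPM in wild-type solvent libraries. It had 159, 151, 166 and 192 CPM in heterozygous FK228 libraries against 161, 128, 61.4 and 79.7 CPM in heterozygous solvent libraries. The groups did not overlap in wild type, while heterozygous solvent library 1 lay within the FK228 range. Reads carried no strand information, since the first strand column held 49.8% to 49.9% of the reads of both in every library. The annotated exon of Kcnq1ot1 spans 93092 bases opposite Kcnq1, so unspliced Kcnq1 reads there cannot be told from Kcnq1ot1. These levels and calls may hold both. Kcnq1ot1 passed as higher by 0.59 ± 0.24 on the log2 scale in wild type (adjusted p = 0.0437, edgeR) and by 0.64 ± 0.24 in heterozygous cultures (adjusted p = 0.0326), but at -0.15 with spike-in scaling in heterozygous cultures. The wild-type call was lost without any one of 9 libraries, namely wild-type FK228 libraries 1, 4 and 7, wild-type solvent libraries 1, 2 and 4 and heterozygous FK228 libraries 2, 3 and 4 (log2 fold changes 0.42 to 0.64, adjusted p 0.0504 to 0.14). The heterozygous call of Kcnq1ot1 was lost without any one of FK228 libraries 4 and 5 or solvent libraries 4 and 5 (log2 fold changes 0.44 to 0.64, adjusted p 0.0536 to 0.101). DESeq2 did not call Kcnq1ot1 in wild type (adjusted p = 0.0637). In edgeR the wild-type call was also lost with replicate number as a block (adjusted p = 0.136) or with a sex-mix covariate (adjusted p = 0.0541). The heterozygous call was lost with that block (adjusted p = 0.108) and with only the groups compared (adjusted p = 0.0552).

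The solvent libraries with the lowest share of reads in no gene also had the lowest Kcnq1ot1 levels. With that share as a covariate, the log2 fold change of Kcnq1ot1 became 0.17 in wild type (adjusted p = 0.0668, edgeR) and 0.31 in heterozygous cultures (adjusted p = 0.00276). The same 2 libraries had the lowest Rian levels, 11.5 CPM in heterozygous solvent library 4 and 14.3 CPM in wild-type solvent library 1. For Rian the covariate gave 1.11 in wild type (adjusted p = 6.19e-07) and 1.38 in heterozygous cultures (adjusted p = 4.33e-08). For Meg3 it gave 0.90 in wild type (adjusted p = 2.05e-05) and 1.29 in heterozygous cultures (adjusted p = 2.76e-07). Without those 2 libraries Meg3 gave 1.19 in wild type and 1.39 in heterozygous cultures, and Rian gave 1.38 and 1.49. Kcnq1ot1 gave 0.42 in wild type (adjusted p = 0.0499) and 0.44 in heterozygous cultures (adjusted p = 0.0433) without them. Mirg gave 1.04 with the covariate in heterozygous cultures (adjusted p = 0.00938) and 0.42 in wild type (adjusted p = 0.275). The share averaged 18.1% with FK228 and 14.9% with solvent in wild type, and 18.2% with FK228 and 15.2% with solvent in heterozygous cultures. The covariate is thus not independent of treatment. The cause of the spread in this share was not tested.

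**Figure D3:**
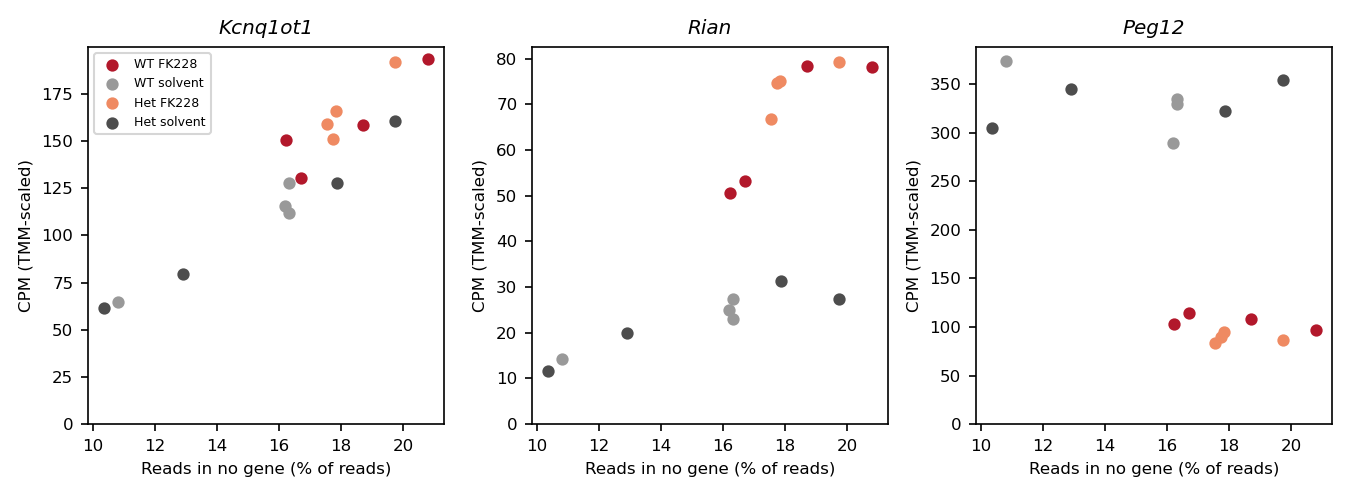
CPM (y axes) of Kcnq1ot1, Rian and Peg12 against the percentage of reads that fell in no gene (x axes), 1 point for each of 16 libraries. Kcnq1ot1 is lowest, at 61.4 and 64.5 CPM, in the 2 libraries with the lowest share. Rian lies above every solvent library in all FK228 libraries, and Peg12 below. FK228 libraries had shares of 16.2% to 20.8% in wild type and 17.5% to 19.7% in heterozygous cultures. None had a share as low as those 2 libraries.

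Slc22a18, a maternally expressed transporter gene, averaged 10.2 ± 1.02 CPM with FK228 and 7.76 ± 0.842 CPM with solvent in wild type, and 13.8 ± 1.25 CPM with FK228 and 9.17 ± 0.848 CPM with solvent in heterozygous cultures. It rose by 0.40 ± 0.13 on the log2 scale (adjusted p = 0.0138, edgeR) in wild type and by 0.59 ± 0.13 (adjusted p = 0.000893) in heterozygous cultures, but stood at -0.12 with spike-in scaling in heterozygous cultures. Tssc4, a maternally expressed gene for a spliceosome assembly factor, averaged 42.0 ± 4.45 CPM with FK228 and 54.9 ± 5.42 CPM with solvent in wild type, and 43.5 ± 0.753 CPM with FK228 and 58.8 ± 1.81 CPM with solvent in heterozygous cultures. Tssc4 fell by 0.39 ± 0.084 on the log2 scale (adjusted p = 0.000897) in wild type and by 0.43 ± 0.084 (adjusted p = 0.000338) in heterozygous cultures. Cdkn1c, the maternally expressed cyclin-dependent kinase inhibitor, averaged 70.5 ± 9.39 CPM with FK228 and 91.2 ± 23.0 CPM with solvent in wild type, and 88.8 ± 14.1 CPM with FK228 and 93.2 ± 24.1 CPM with solvent in heterozygous cultures. It did not pass with all libraries (adjusted p = 0.0974 and 0.78), but passed as lower in wild type without solvent library 4 (-0.48, adjusted p = 0.0473). Phlda2, which restrains placental growth, stayed between 0.616 and 1.82 CPM and passed in neither genotype.

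Sgce and Peg10 form the other divergent pair, with starts 99 bases apart, both on the paternal copy. Sgce (chr6:4674350-4747207, minus strand), which encodes epsilon-sarcoglycan, averaged 32.3 ± 1.96 CPM with FK228 and 57.2 ± 0.988 CPM with solvent in wild type, and 30.7 ± 2.82 CPM with FK228 and 54.4 ± 3.94 CPM with solvent in heterozygous cultures. It fell by 0.82 ± 0.079 on the log2 scale (adjusted p = 1.66e-07, edgeR) in wild type and by 0.83 ± 0.080 (adjusted p = 1.68e-07) in heterozygous cultures, without overlap. Peg10 (chr6:4747306-4760517, plus strand), a gene that came from a retrotransposon, had 4.14, 3.02, 2.72 and 4.53 CPM in wild-type FK228 libraries against 0.859, 2.81, 1.18 and 1.67 CPM in wild-type solvent libraries. It had 3.70, 5.45, 2.03 and 2.83 CPM in heterozygous FK228 libraries against 2.38, 5.63, 2.42 and 5.55 CPM in heterozygous solvent libraries. The groups overlapped in both genotypes, and solvent libraries 2 and 5 were the highest of the heterozygous cultures. Peg10 passed as higher in wild type by 1.16 ± 0.39 on the log2 scale (adjusted p = 0.0202), and gave -0.19 ± 0.38 in heterozygous cultures (adjusted p = 0.705). The wild-type call was lost (adjusted p 0.0584 to 0.0666) without any one of FK228 library 7 or solvent libraries 1 and 3, at 0.93 to 1.03. The difference between genotypes, -1.34 ± 0.54, did not pass (adjusted p = 0.803).

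Ppp1r9a, the neurabin gene downstream of Peg10, fell in both genotypes. It averaged 16.3 ± 1.42 CPM with FK228 and 28.0 ± 2.28 CPM with solvent in wild type (log2 fold change -0.78 ± 0.15, adjusted p = 0.000324, edgeR), and 15.8 ± 2.43 CPM with FK228 and 30.1 ± 7.46 CPM with solvent in heterozygous cultures (-0.93 ± 0.15, adjusted p = 6.29e-05). Asb4, a maternally expressed ankyrin repeat gene, held 0.849 to 4.98 CPM over all libraries and passed in neither genotype.

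Nnat (chr2:157560078-157562522, plus strand), the paternally expressed gene of neuronatin, a small membrane protein of the endoplasmic reticulum, had 21.6, 23.3, 19.1 and 22.5 CPM in wild-type FK228 libraries against 11.8, 8.80, 9.98 and 11.1 CPM in wild-type solvent libraries. Heterozygous FK228 libraries had 16.9, 23.6, 21.1 and 21.1 CPM against 6.85, 9.30, 11.5 and 13.5 CPM in heterozygous solvent libraries. The groups did not overlap. Nnat rose by 1.05 ± 0.16 on the log2 scale in wild type (adjusted p = 4.05e-05, edgeR) and by 1.01 ± 0.17 in heterozygous cultures (adjusted p = 7.47e-05). Among 14 neuron markers, 5 rose and 5 fell in wild type, and 7 rose and 3 fell in heterozygous cultures, beside the shares of all genes given for the mesenchyme markers, and the part of cell makeup in the rise of Nnat was not tested. Impact fell by 0.25 ± 0.073 on the log2 scale in wild type (adjusted p = 0.00892), at 441 ± 26.5 CPM with FK228 and 523 ± 26.0 CPM with solvent. In heterozygous cultures Impact fell by 0.34 ± 0.073 (adjusted p = 0.000768), at 407 ± 36.6 CPM with FK228 and 516 ± 33.7 CPM with solvent. Peg13, a paternally expressed noncoding RNA, and the pair Zrsr1, a splicing factor retrogene, and Commd1, its host gene, passed in neither genotype, with log2 fold changes between -0.19 and 0.24.

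Counts without strand leave out reads that fall in exons of genes on opposite strands, which touched several imprinted genes. Gnas, the gene of the stimulatory G protein alpha subunit, kept 778 reads over the 16 libraries, against 48453 when the strand columns were added up, since its exons overlap Gm20721 and Nespas. From the 778 reads Gnas passed as lower in wild type (-0.74 ± 0.28, adjusted p = 0.0339, edgeR) and not in heterozygous cultures (-0.35 ± 0.28, adjusted p = 0.316). The wild-type call was lost (adjusted p 0.0524 to 0.124) without any one of FK228 libraries 1, 2 and 4 or solvent libraries 2 and 4, at -0.77 to -0.56. From the added strand columns Gnas averaged 151 ± 17.2 CPM with FK228 and 210 ± 15.4 CPM with solvent in wild type (-0.51 ± 0.087, adjusted p = 0.00012). The same columns gave 144 ± 15.5 CPM with FK228 and 193 ± 11.7 CPM with solvent in heterozygous cultures (-0.52 ± 0.088, adjusted p = 9.13e-05). In such a sum a read in an overlap counts for both genes. Gnas thus fell in both genotypes once these reads were kept, although the reads do not tell it from the overlapping genes.

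Mest and Copg2, which overlap at their 3′ ends, left out 54240 reads that lie in both. Copg2, a coat protein subunit gene, averaged 161 ± 3.85 CPM with FK228 and 129 ± 6.63 CPM with solvent in heterozygous cultures and passed as higher (0.32 ± 0.072, adjusted p = 0.00124, edgeR), but at -0.40 with spike-in scaling. With the strand columns added up, Copg2 gave 0.12 ± 0.077 (adjusted p = 0.206), so the call was lost. In wild type it averaged 140 ± 7.56 CPM with FK228 and 133 ± 13.2 CPM with solvent and did not pass (adjusted p = 0.449). Nnat, with 1.9 times as many reads in the strand columns, kept its rise at 1.1 ± 0.15 in wild type and 1.00 ± 0.15 in heterozygous cultures.

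**Figure D4:**
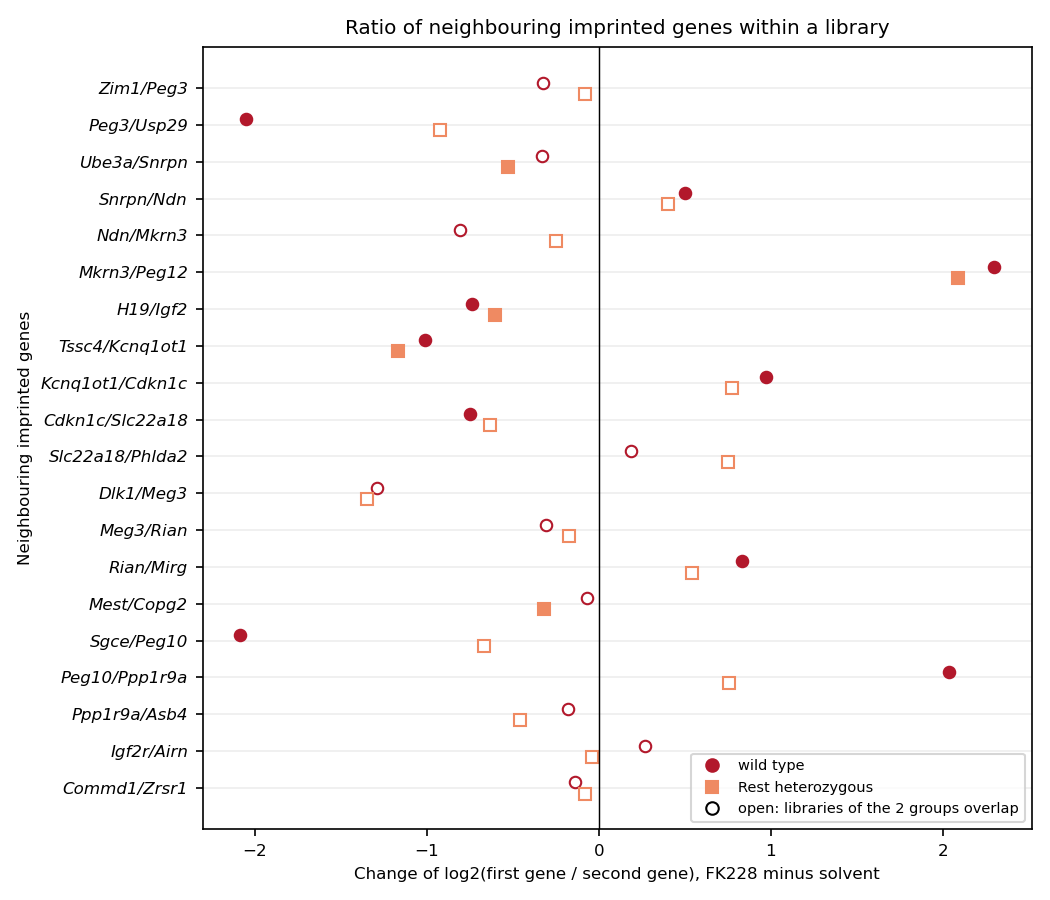
Change with FK228 in the log2 ratio of each imprinted gene to the next tested one in its cluster (x axis, FK228 minus solvent, means of 4 libraries), for 20 pairs (y axis). Circles are wild type, squares are heterozygous cultures and open symbols mark pairs whose FK228 and solvent libraries overlap. Peg3/Usp29 and Sgce/Peg10, the divergent pairs, lie at -2.05 and -2.08 in wild type and at -0.92 and -0.67 in heterozygous cultures.

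Ratios of neighbouring genes within a library do not depend on scaling. Of the 20 pairs of neighbouring tested imprinted genes, 10 had no overlap between FK228 and solvent libraries in wild type and 5 in heterozygous cultures. The same held for 40.1% and 38.4% of all 16378 pairs of neighbouring tested genes of the genome. These pairs were adjacent tested genes with a count in every library. The imprinted pairs instead skip any other genes between members of a cluster, with starts up to 2206350 bases apart (Snrpn/Ndn). The shares are therefore not of like pairs. In both genotypes and in the same direction it held for 3 imprinted pairs, Mkrn3/Peg12, H19/Igf2 and Tssc4/Kcnq1ot1, and for 27.6% of all pairs. The log2 ratio of Mkrn3 to Peg12 was higher by 2.30 in wild type and 2.09 in heterozygous cultures, and that of Tssc4 to Kcnq1ot1 lower, at -1.01 and -1.17. Dlk1 to Meg3 gave -1.29 in wild type and -1.35 in heterozygous cultures, with overlap in each. Igf2r to Airn gave 0.27 and -0.041. Reads from the opposite strand may enter the Kcnq1ot1 and Airn counts in these ratios.

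Genotype changed none of the tested imprinted genes past the threshold of edgeR. Heterozygous against wild-type cultures gave 0 calls of 35 in solvent, where 2.03% of all genes were called. At an unadjusted p under 0.05 stood 5 of the 35, and 1936 of all 17125 genes (edgeR). The libraries of the genotypes did not overlap there for 1 imprinted gene, Ube3a, higher in heterozygous cultures but at -0.029 with spike-in scaling, and for 6.23% of all genes. With FK228 the comparison of genotypes gave 0 calls, with 2.14% of all genes called, 1.21% higher. An unadjusted p under 0.05 was seen for 5 of the 35 and for 2210 of all 17125 genes. There the libraries did not overlap for Peg12, lower in heterozygous cultures, for Slc22a18 and Copg2, both higher but at -0.30 and -0.53 with spike-in scaling, and for 8.84% of all genes, and these genes are named after their values were seen. DESeq2 called 1 imprinted gene in each, Peg10 in solvent (1.31, adjusted p = 0.0414) and Slc22a18 with FK228 (0.42, adjusted p = 0.0432). In solvent, Peg10 averaged 3.99 ± 1.84 CPM in heterozygous cultures and 1.63 ± 0.853 CPM in wild type (log2 fold change 1.30 ± 0.39, adjusted p = 0.116, edgeR) and passed without wild-type solvent library 2 (1.70, adjusted p = 0.0438). Igf2r averaged 351 ± 56.0 CPM in heterozygous cultures and 275 ± 35.5 CPM in wild type in solvent (0.35 ± 0.12, adjusted p = 0.195) and passed without heterozygous solvent library 4 (0.46, adjusted p = 0.0316). The difference of the FK228 effects between genotypes was called for 0 of 35 by either tool. By edgeR it was called for 0.0234% of all genes, 0.0175% higher and 0.00584% lower. At an unadjusted p under 0.05 stood 4 imprinted genes by edgeR, beside 995 of all 17125 genes, and 4 by DESeq2. Peg3 had the smallest unadjusted p there, at a difference of 0.51 ± 0.17 (adjusted p = 0.611), and -0.039 with spike-in scaling. With spike-in scaling, 26 imprinted genes were called lower in heterozygous cultures with FK228 than in wild type with FK228, as were 12761 of all 17125 genes, with the median of all genes at -0.74.

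Of 33 listed factors that set, keep or read imprints, 30 were tested. In wild type 7 rose, 9 fell and 14 did not pass, near the share of all genes called (49.0%), and in heterozygous cultures 7 rose, 14 fell and 9 did not pass, beside 48.4% of all genes. Mbd3, a subunit of the NuRD deacetylase complex, averaged 21.4 ± 2.79 CPM with FK228 and 62.4 ± 2.34 CPM with solvent in wild type (-1.54 ± 0.099 on the log2 scale, adjusted p = 1.64e-09, edgeR), and 21.3 ± 2.58 CPM with FK228 and 67.3 ± 3.61 CPM with solvent in heterozygous cultures (-1.66 ± 0.10, adjusted p = 7.45e-10). Dnmt3a, a de novo DNA methyltransferase, gave -0.70 ± 0.070 in wild type and -0.86 ± 0.070 in heterozygous cultures. Hdac1 and Hdac3, deacetylases of the class that FK228 inhibits, rose, Hdac1 by 0.90 ± 0.10 in wild type and 0.93 ± 0.10 in heterozygous cultures on the log2 scale, and Hdac3 by 0.60 ± 0.069 and 0.56 ± 0.070 in those cultures.

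Another 38 mouse genes that are imprinted or lie in imprinted regions were listed, and 29 were tested. In wild type 7 rose and 8 fell, beside 49.0% of all genes called. In heterozygous cultures 5 rose and 6 fell, beside 48.4% of all genes called. Klf14, a maternally expressed zinc finger gene, averaged 5.73 ± 0.799 CPM with FK228 and 0.633 ± 0.201 CPM with solvent in wild type (3.16 ± 0.22 on the log2 scale, adjusted p = 5.15e-09, edgeR). In heterozygous cultures Klf14 averaged 6.79 ± 0.707 CPM with FK228 and 0.611 ± 0.0639 CPM with solvent (3.46 ± 0.23, adjusted p = 2.45e-09). Casd1, next to Sgce, gave -1.29 ± 0.16 in wild type and -1.41 ± 0.16 in heterozygous cultures, and Osbpl5, in the Kcnq1 region, gave -0.83 ± 0.086 in wild type and -0.89 ± 0.087 in heterozygous cultures. Rasgrf1, a paternally expressed exchange factor, was the only one of the 29 called by genotype, in solvent. Heterozygous cultures averaged 11.6 ± 2.79 CPM and wild-type cultures 5.52 ± 1.89 CPM (1.06 ± 0.23, adjusted p = 0.0182).

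RefSeq windows around the start (300 bases, GRCm38.p6) were found for 32 of the 40 genes, 48 windows in all. There was none for Sgce, H19, Impact, Cdkn1c, Rtl1, Peg13, Peg10 and Nespas. The median number of CpG was 13 in the windows of imprinted genes and 7 in all 32851 windows. TGCCGC, the core of the motif bound by the imprint-keeping factor ZFP57, was searched on both strands. It lay in 12 of the 48 windows and in 11.6% of all. The motif itself holds a CpG, and windows of imprinted genes held more CpG, so these shares are not compared at equal CpG. The 12 are not separate stretches, since the Snrpn and Snurf windows are the same bases and both Mest windows start 3 bases apart. These windows belonged to 11 genes, Commd1, Copg2, Grb10, Igf2, Meg3, Mest, Nnat, Plagl1, Snrpn, Snurf and Zim1, which hold genes that rose, fell and did not pass. GCCATNTT, where N is any base, was searched in the same way. It lay in 2 of the 48 windows, those of Mkrn3 and Ube3a, and in 6.05% of all. A match is a description of these letters only.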

How the data were processed

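RNA-seq was deposited as whole-number counts per gene and library, with an unstranded and 2 strand columns, and as a normalized signal table of counts divided by size factors. Reads were aligned with STAR 2.5.2a to GRCm38.p4 and DESeq2 was used by the authors, per the submitters' processing notes; other settings are not given in the sources used here. RNA was primed with oligo dT and amplified with template switching, per the labels' protocols. Spike-in rows and reads in no gene (10.4% to 20.8% of reads) were left out of library sizes. The unstranded counts of all 16 libraries were fitted in edgeR 4.0.16 (R 4.3.3) with TMM factors, filterByExpr (minimum count 10, total 15) and the quasi-likelihood test, and Benjamini-Hochberg p-values were adjusted over 17125 genes, with calls at 0.05. The SE of a log2 fold change was derived from this test, as the absolute log2 fold change over the square root of the moderated F statistic. The normalized signal deposited by the authors gave back the same counts (within 0.001) and the same calls. Within groups, the 24 library pairs differed by more than sampling noise. On simulated data with 200 genes changed by a log2 value of 1, FK228 in wild type, the fit recovered 79.2%, and 97.8% of those above 4 CPM, with 4.3% false among the called of 17125 genes. The simulation gave every gene the same dispersion and changed far fewer genes than were called in the data. These rates therefore need not hold for the calls given here. Gene coordinates and exon lengths came from a GRCm38 annotation that held 99.3% of the count identifiers. Values in every library are given for imprinted genes with an adjusted p under 0.05 and an absolute log2 fold change of 1 or more with FK228, and for the 2 most abundant per length; of other lists, up to 4 genes with the smallest p. The genes, lists and tests were chosen with earlier results of these data known. Alternatives were DESeq2 1.42.0, RLE and spike-in scaling, no filter, a minimum count of 50, only the groups compared, a replicate block, a sex-mix covariate, each strand column and leaving out each library. Others were chosen after seeing the data, namely the sum of strand columns, recovered counts, a fit without the 2 libraries whose share of reads in no gene was lowest, and that share as a covariate.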

Additional observations from a re-analysis of the deposited data

Results flagged for a closer look

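Of 40 groups of 4 libraries tested for a library far from the others, 2 stood out, and chance alone marks about 1 in 20 groups. H19 had 356.26 CPM in wild-type solvent library 4, where the other 3 solvent libraries of wild type had 270 to 279 CPM. That library had 0 CPM summed over Y-linked genes, as had wild-type FK228 library 2, against 82.1 to 257 CPM in the others. Pools thus differed in sex mix, and its part in this H19 value was not tested. Mest had 311.917 CPM in heterozygous solvent library 1, where the other 3 solvent libraries of heterozygous cultures had 378 to 383 CPM.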

How the results depend on the processing

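Of 36 changes called with FK228, 22 kept their direction and their side of the threshold under all 30 alternatives. These alternatives are not independent checks. The recovered counts equal the counts fitted, and the strand columns hold largely the same reads. Leaving out a library of the other genotype changes neither group compared. With spike-in scaling, which moved the median of all genes to -0.16 (FK228, wild type), -0.72 (FK228, heterozygous), -0.18 (genotype in solvent), -0.74 (genotype with FK228) and -0.56 (difference of FK228 effects), 4 imprinted genes were called higher in wild type, 2 higher and 21 lower in heterozygous cultures, 26 lower by genotype with FK228 and 9 lower in the difference, beside 2008, 807, 10717, 12761 and 4060 of all 17125 genes. Among genes called with either scaling, log2 fold changes that changed sign there were, for FK228 in heterozygous cultures, Peg3 -0.41, Snrpn -0.38, Kcnq1ot1 -0.15, Slc22a18 -0.12, Copg2 -0.40, Igf2r -0.62, Airn -0.61, Zrsr1 -0.61 and Commd1 -0.65. For genotype with FK228 they were Peg3 -0.46, Igf2 -0.48, H19 -0.50, Kcnq1ot1 -0.66, Cdkn1c -0.41, Tssc4 -0.68, Meg3 -0.64, Copg2 -0.53, Igf2r -0.65, Airn -0.73, Zrsr1 -0.74 and Commd1 -0.65, and for the difference Snrpn -0.57 and Commd1 -0.58. DESeq2 called 1 imprinted gene higher by genotype in solvent and 1 with FK228. Leaving out each library in turn gave 6 to 10 higher and 8 to 9 lower in wild type, 7 to 10 higher and 8 to 9 lower in heterozygous cultures, 0 to 1 higher by genotype in solvent and 0 elsewhere. The replicate block gave 7 higher and 8 lower in wild type and 8 and 8 in heterozygous cultures, with 5 calls lost. The labels do not say whether a shared number marks a shared origin, and deviations of the 17 same-numbered pairs correlated at -0.231 to 0.169, with 2 over 0.1. The cause of these changes was not tested. Depth limits the scarce genes, such as Zim1, Peg10 and Phlda2, whose fold changes have wide errors.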
